A study of Mus musculus with 7 samples.

Results

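TM4 is a cell line derived from the Sertoli cells of the mouse testis, and it was profiled here with and without introduction of ERM. The comparison consisted of 2 arrays of the 7 in the series, 1 of TM4 cells transfected with ERM and 1 of TM4 cells without it, chosen by their sample titles. ERM, the product of Etv5, is a transcription factor of the PEA3 group within the ETS family. ETS factors bind DNA at a GGAA core, and the PEA3 group acts downstream of receptor tyrosine kinases through the ERK pathway. In the testis Etv5 is made by Sertoli cells and by spermatogonia, and mice without it gradually lose the spermatogonial stem cells that renew the germ line.

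The remaining arrays came from whole testis and from primary Sertoli cells of ERM knockout and wild-type mice. Primary Sertoli cells of the ERM knockout at 4 weeks and at 10 weeks and of the wild type at 4 weeks, 1 array each, were measured on the same array design as TM4 and are used below for comparison. The testis arrays are of another design and were not used here. The samples' labels do not say which construct or promoter carried ERM, whether the transfection was transient or stable, whether the transfected cells were 1 clone, or how long after transfection RNA was taken. No array of TM4 cells with an empty vector was used here, so effects of transfection as such and of ERM cannot be told apart. Each group had 1 array, so no difference had a replicate check, no test across samples was possible and no p-value is given.

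The deposited values are probe set intensities on a linear scale. Each array was scaled to a trimmed mean of 500, and values below a floor of 100 were set to that floor, so a ratio with 1 array below it is a bound. A gene was represented by its brightest probe set over the TM4 arrays, and every ratio below is TM4 with ERM over TM4 without. On the deposited scale the trimmed mean was 186 with ERM and 183 without, and 79.9% of one-gene probe sets reached the floor with ERM, against 80.4% without. The 3′ to 5′ intensity ratio of the Gapdh control probe sets, a sign of RNA integrity, was 0.818 with ERM and 0.798 without. That of Actb was 1.04 on both arrays. At least 1 of the TM4 arrays reached the floor for 29214 probe sets of 16378 genes. Just inside this limit was Ankrd39, at 100.01 with ERM and 61.1 without, and just outside was Lztr1, at 64.2 with ERM and 99.998 without.

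Etv5 itself was only slightly brighter on the array with ERM. The probe set with the highest mean of its 3 read 473 in TM4 with ERM and 405 in TM4 without, a ratio of 1.17. A probe set shared by several transcripts, 1450082_s_at, read 475 with ERM and 314 without, a ratio of 1.51. The dimmest read 211 with ERM and 187 without, a ratio of 1.13. All 3 thus lay above 1, and none reached 2-fold. The untransfected line already had Etv5 signal above the floor on every probe set. In primary Sertoli cells the same probe set as the first read 910 in the 4-week ERM knockout and 995 in the 10-week knockout, against 710 in the 4-week wild type, so it was not lower in the knockout than in the wild type. The sources used here do not say where the 3 probe sets lie relative to the deleted part of the gene or to the transfected sequence, so these values check neither the transfection nor the knockout. In a bulk sample, more cells with a transcript and more RNA per cell cannot be told apart, which holds for every value below.

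Sertoli genes differed widely in level between the TM4 line and primary Sertoli cells, with little difference between the 2 TM4 arrays. Of 14 Sertoli transcription factors with a one-gene probe set, 12 reached the floor in TM4 with ERM, 12 in TM4 without and 12 in wild-type Sertoli cells. Of 24 Sertoli marker genes, 20 reached it with ERM, 21 without and 22 in wild-type Sertoli cells. Their summed intensity was 40258 with ERM and 38984 without, against 106108 in wild-type Sertoli cells. Most genes reached the floor, 16378 of 18193 on at least 1 TM4 array, so the counts at the floor do not show a Sertoli identity. Several defining genes were near the floor in the line. Wt1, a zinc finger factor that maintains Sertoli identity, read 92.1 with ERM and 97.4 without, against 3802 in wild-type Sertoli cells. Cst12, a cystatin that Sertoli cells secrete, read 100.5 with ERM and 117 without, against 12062. Cldn11, the claudin of the blood-testis barrier, read 252 with ERM and 239.9 without, against 6894. Inha, which encodes the inhibin alpha subunit, read 167 with ERM and 206 without, against 4717. Sox9, the transcription factor that specifies Sertoli cells, gave no single answer. Its probe set 1433889_at read 150.3 with ERM and 95.1 without, against 5220 in wild-type Sertoli cells, whereas 1424950_at read 2518 with ERM and 2869 without, against 2166. The remaining Sox9 probe set, 1451538_at, read 1062 with ERM and 1072 without, against 1200.4. Some genes were brighter in the line than in primary cells. Inhbb, which encodes an activin and inhibin beta subunit, read 3766 with ERM and 3833 without, against 318. Emx2, a homeobox factor of the developing urogenital system, read 1291 with ERM and 973 without, against 42.0.

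The TM4 arrays were close to each other. Across 34945 one-gene probe sets their log2 intensities correlated with r = 0.985, a description across probe sets that are not independent replicates. The median log2 ratio over genes was 0.00, and the 5th and 95th percentiles were -0.42 and 0.44. Of 16378 genes, 48 were 2-fold or more higher with ERM (0.293%) and 76 were 2-fold or more lower (0.464%). At a 1.5-fold limit these counts were 329 higher (2.01%) and 391 lower (2.39%). The only error estimate within the pair came from genes with more than 1 probe set. The standard deviation of the log2 ratio per probe set within a gene was 0.15 for 2265 bright genes and 0.29 for 3106 dim ones, and it does not cover variation between cultures.

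Ratios past 2-fold were mostly found in dim genes. The brighter array read at least 500 for 20 of the 48 higher genes and 22 of the 76 lower ones. With ERM higher, 17 of the 48 were bounds with the untransfected array below the floor, and with ERM lower, 40 of the 76 were bounds with the transfected array below it. The dimmer array was at the lowest deposited value, which is exactly 1, for 5 of the higher and 7 of the lower genes. Among 7402 genes with both arrays at or above the trimmed mean, 3 passed 2-fold on the higher side and 4 on the lower. Asking this of both arrays leaves out genes that are dim on 1 array, so the selection itself lowers these 2 counts. The share past 1.5-fold dropped from dim to bright genes. It was 7.94% where the brighter array read 100 to 200, 6.69% at 200 to 500, 2.41% at 500 to 1000, 1.2% at 1000 to 2000 and 0.591% at 2000 or above. The genes at the 2-fold limit were Arhgap8, with a log2 ratio of 1.01 just inside, and Elmod1, with 0.99 just outside. On the lower side Gm11476 lay just inside with -1.01 and C5ar1 just outside with -0.9996.

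**Figure D1:**
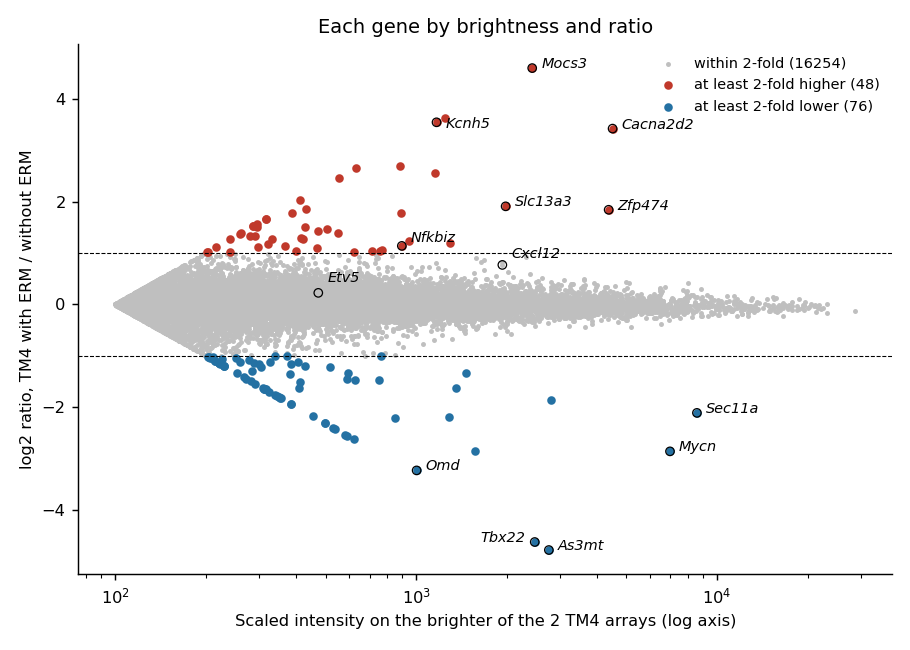
Each point is a gene, with scaled intensity on the brighter TM4 array on a log axis and the log2 ratio of TM4 with ERM over TM4 without on the vertical axis; red points are 2-fold or more above, blue points 2-fold or more below, and dashed lines mark 2-fold. Diagonal edges at the left are ratios against the floor of 100, and the 7402 genes bright on both arrays lie close to 0, with 3 past the upper line and 4 past the lower one.

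Among the genes at least 2-fold higher with ERM, Cacna2d2 had the brightest array. It encodes an auxiliary subunit of voltage-gated calcium channels and read 4497 in TM4 with ERM and 419 without, a 10.7-fold ratio, and 28.8 in wild-type Sertoli cells. Its other 2 probe sets were below the floor on both TM4 arrays. Mocs3, which activates sulfur carriers for molybdenum cofactor synthesis and tRNA modification, read 2431 with ERM and 27.3 without, at least 24.3-fold higher. Its other probe set went the other way, with 107 with ERM and 147 without. That other probe set read 462 to 656 on the Sertoli arrays, where the first read 58.2 to 66.1. Kcnh5, a voltage-gated potassium channel gene, read 1169 with ERM and 3.47 without, at least 11.7-fold higher, and 36.8 to 42.4 on the 3 Sertoli arrays. Zfp474, a zinc finger gene, read 4364 with ERM and 1217 without, a 3.59-fold ratio. Slc13a3, which takes up citric acid cycle intermediates with sodium, read 1984 with ERM and 528 without on 1 probe set, while log2 ratios of 0.28 and 0.00 stood on 2 others. Cacng2, or stargazin, which traffics glutamate receptors in neurons, read 883 with ERM and 137 without on 1 probe set and had log2 ratios of 0.04 and 0.03 on the others. Ercc2, a helicase of the repair and transcription factor TFIIH, read 553 with ERM and 22.7 without, and the same probe set read 993 to 1155 on the Sertoli arrays. On that probe set the untransfected array was the lowest of the 5, and the other Ercc2 probe set read 209 with ERM and 191 without. The rest of the 12 highest, genes with clone or provisional names left out, were Fcer1a, a chain of the IgE receptor, at 5.87-fold, Ankrd28, a protein phosphatase 6 subunit, at 3.41-fold, Adgre4 at 2.77-fold, with its other probe set level at 189 on both arrays, Lnx2 at 2.61-fold and the olfactory receptor gene Olfr1264 at no less than 6.31-fold.

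On the lower side the largest ratios belonged to As3mt and Tbx22. As3mt, an arsenite methyltransferase, read 2.69 in TM4 with ERM and 2762 without, at least 27.6-fold lower. Tbx22, a T-box factor of palate development, read 33.2 with ERM and 2479 without, at least 24.8-fold lower. On the 3 Sertoli arrays As3mt read 103 to 274 and Tbx22 233 to 333, in each case between the TM4 values. Mycn, a transcription factor of the Myc family, read 958 with ERM and 6978 without, 7.29-fold lower. Its 2 dimmer probe sets did not repeat this, with 155 with ERM and 77.0 without on one, and 152 with ERM and 149 without on the other. Sec11a, a catalytic subunit of the signal peptidase, read 1979 with ERM and 8575 without, 4.33-fold lower, against 3075 to 3542 on the Sertoli arrays. The second Sec11a probe set, at 153 with ERM and 181 without, had a log2 ratio of -0.24. Omd, a proteoglycan of mineralised tissue, read 107 with ERM and 1004 without, and Nptx1, a neuronal pentraxin, read 218 with ERM and 1572 without. Sox1, a transcription factor of neural progenitors, read 184.0 with ERM and 853 without. The same Sox1 probe set read 5941 in 4-week knockout Sertoli cells and 1.71 in 10-week knockout cells, against 1.67 in 4-week wild-type cells, so a high reading appeared on 1 of the 3 Sertoli arrays. On their brightest probe sets C1qtnf9, Dkk4, Efcab15, Slc1a3 and Tmem26 were each below the floor with ERM and read 529 to 619 without it. Slc1a3, a glutamate transporter gene, had log2 ratios of only -0.28 and -0.56 on 2 other detected probe sets.

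Genes with more than 1 probe set offered a repeat within the same arrays, and large ratios were rarely repeated there. Of the 124 genes past 2-fold (0.757%), 38 had a total of 56 further detected probe sets. None of the 56 was past 2-fold in its gene's direction and 1, for Ints7, was past 1.5-fold. The sign was shared by 34 of the 56 (60.7%), against 53.1% of 12836 such probe sets over all genes. The median of the 56 was 0.04 in the gene's direction. Because the brightest probe set was chosen on the same TM4 arrays that were compared, a high reading on 1 array could make a probe set represent its gene. The choice therefore favours probe sets with large ratios, Mocs3 being an example. Which of a gene's probe sets reads its transcript best was not tested.

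**Figure D2:**
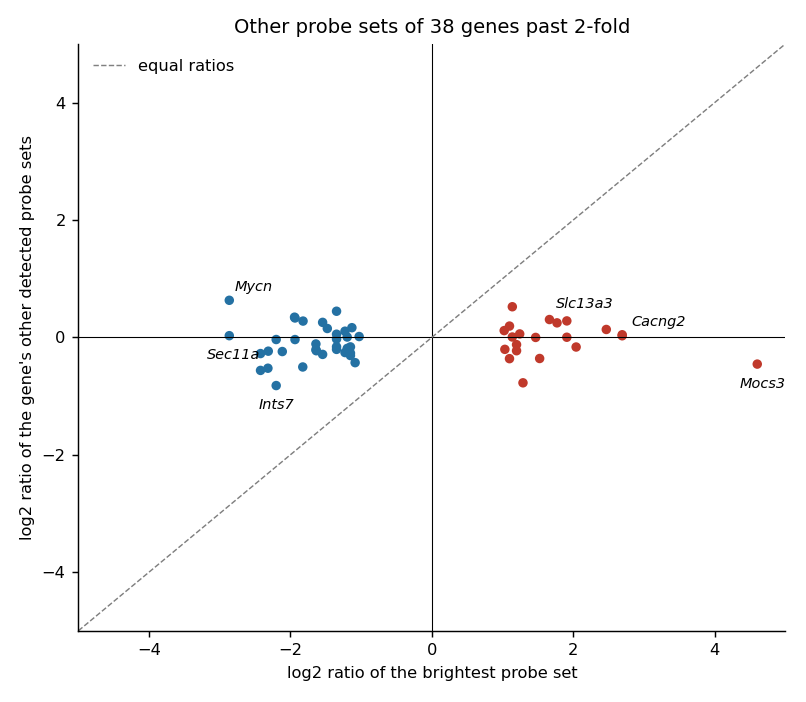
For 38 genes past 2-fold, the log2 ratio (TM4 with ERM over TM4 without) of the brightest probe set is on the horizontal axis and that of each of the gene's 56 other detected probe sets on the vertical axis; red marks genes higher with ERM, blue genes lower, and the dashed line marks equal ratios. The points lie along 0 rather than along the dashed line, with a median of 0.04 in the gene's direction.

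At least 2 probe sets past 1.5-fold, and every detected probe set of the gene on the same side of 0, were found for 5 higher and 5 lower genes of 7431 (0.0673% each). These counts hung on the setting, with 10 and 3 on the values as deposited, 19 and 36 at a floor of 0.1 of the trimmed mean, and 0 and 0 at 0.4. The higher genes included Mxd1, Aspn, Nos1ap and Tnrc18. Nos1ap, an adaptor of neuronal nitric oxide synthase, read 556 with ERM and 356 without on 1 probe set and 235 with ERM and 129 without on the other. Aspn, a small proteoglycan that binds TGF-beta, read 222 with ERM and 139.5 without, and 171 with ERM and 97.3 without. Mxd1, a partner of Max that opposes Myc, had log2 ratios of 0.79 and 1.22 on its dim probe sets, both bounds, and 0.18 on the brightest. Tnrc18 showed the same order, with 1.07 and 0.61 on dim probe sets and 0.21 on the brightest.

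The lower genes were Ints7, Snhg5, Sorl1, Dnajc1 and Panx3. Ints7, a subunit of the Integrator complex, read 279.8 with ERM and 1287 without on its brightest probe set. Another Ints7 probe set read 503 with ERM and 516 without, and the last read 89.5 with ERM and 177 without. Sorl1, a sorting receptor of the endosome, read 178 with ERM and 303 without on 1 probe set and 78.7 with ERM and 157 without on another. Snhg5, a host gene of small nucleolar RNAs, had log2 ratios of -0.27 on its brightest probe set and of -0.78 and -0.94 on 2 dim ones. Dnajc1, a chaperone partner of the endoplasmic reticulum, ranged from -1.25 to -0.01 over 4 probe sets. Panx3, a channel protein of cartilage and bone, ranged from -0.65 to -0.38 over 3. Sorl1, Panx3, Dnajc1, Aspn and Tnrc18 stayed below 500 on every probe set in TM4. Apart from Ints7 and Sorl1, each of the higher and lower genes named here had its largest ratio on a probe set other than its brightest.

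Genes that answer inflammatory cytokines through NF-kB lay somewhat higher with ERM. NF-kB is a transcription factor held in the cytoplasm by inhibitors of the I-kappa-B family, several of which are themselves induced by it as feedback. Of 30 listed targets, 24 were past the floor, their median log2 ratio was 0.17, and 17 lay above 0. At 1.5-fold, 4 were higher and none lower. Over all genes 50.9% lay above 0, 2.01% were past 1.5-fold higher, 2.39% were past it lower and the median was 0.00. Nfkbiz, a nuclear I-kappa-B protein that turns on secondary response genes, read 896 in TM4 with ERM and 407 without on its brightest probe set. Its other probe sets had log2 ratios of 0.52 and 0.01, so they spanned nearly no difference to more than 2-fold. Tnfaip3, or A20, the ubiquitin-editing enzyme that shuts NF-kB signalling off, read 798 with ERM and 482 without, and 301 with ERM and 234 without on a second probe set. Both Tnfaip3 probe sets were brighter with ERM. Traf1, an adaptor of TNF receptors, read 438 with ERM and 254 without on 1 probe set and 220.1 with ERM and 215 without on the other. Nfkbie, the inhibitor I-kappa-B epsilon, read 209 with ERM and 119.9 without, and its second probe set was below the floor on both arrays.

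Other members differed less or in the opposite direction. Ptgs2, the inducible cyclooxygenase, read 2229 with ERM and 1618 without, and 1437 with ERM and 1168 without on a second probe set. Vcam1, a leukocyte adhesion molecule, was brighter with ERM on all 3 probe sets, with log2 ratios of 0.22 to 0.41. Lcn2, a siderophore-binding protein, read 2893 with ERM and 2270.0 without. Nfkbia, the first I-kappa-B to be resynthesised when NF-kB is active, read 4030 with ERM and 4856 without on its brightest probe set, a log2 ratio of -0.27. Csf3, the granulocyte growth factor, read 177 with ERM and 254 without. Of 12 members with at least 2 detected probe sets, 5 had every probe set above 0 and 0 had every one below, whereas over all such genes 20.7% were above 0 throughout and 19.5% below 0 throughout. All members share the same pair of arrays, and whether the list stands apart was not tested.

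The windows around the transcription starts of members described here were searched for 2 sets of letters on both strands, using RefSeq promoter windows of assembly GRCm38.p6 that run from 250 bases before to 50 bases after each start. A gene was counted if any of its windows held a match. The letters CCGGAAG, a common ETS core with its flank, were found for 15.9% of 13008 genes past the floor with a window. Among genes at least 2-fold higher they were in 5 of 33 (15.2%), and among genes at least 2-fold lower in 6 of 60 (10.0%). At 1.5-fold they were in 21 of 257 higher genes (8.17%) and 29 of 330 lower ones (8.79%), both under the share of all genes. The second set, a form of the NF-kB site, was GGG and TTTCC with any 2 bases between them. It was found for 1.87% of all genes with a window and for 4 of 20 members of the NF-kB list, namely Csf1, Nfkb2, Nfkbia and Tnfaip3. It was in 0 of 33 genes at least 2-fold higher and 1 of 60 lower (1.67%), and at 1.5-fold in 3 of 257 higher (1.17%) and 11 of 330 lower (3.33%). Of these 4, Tnfaip3 had the largest ratio and the others had log2 ratios of 0.15, 0.10 and -0.27. The ETS letters were in 1 of 20 members of the NF-kB list (5%), namely Nfkbie, against 15.9% of all genes. Windows of Tnfaip3, Nfkbie and Cxcl12 are shown as examples. Capitals mark the NF-kB letters in the first, read on the opposite strand, and the ETS letters in the second, while the third holds neither. A further Tnfaip3 window, around another start of that gene, also held neither and is not shown. A match is a description of letters, and binding was not measured.
Tnfaip3, chr10:19015361-19015660, minus strand: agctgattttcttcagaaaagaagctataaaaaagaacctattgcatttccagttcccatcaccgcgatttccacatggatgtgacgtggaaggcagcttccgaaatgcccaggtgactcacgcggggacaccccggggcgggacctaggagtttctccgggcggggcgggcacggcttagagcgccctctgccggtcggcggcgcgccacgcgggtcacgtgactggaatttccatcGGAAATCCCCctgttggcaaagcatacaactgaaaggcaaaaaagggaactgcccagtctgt
Nfkbie, chr17:45555450-45555749, plus strand: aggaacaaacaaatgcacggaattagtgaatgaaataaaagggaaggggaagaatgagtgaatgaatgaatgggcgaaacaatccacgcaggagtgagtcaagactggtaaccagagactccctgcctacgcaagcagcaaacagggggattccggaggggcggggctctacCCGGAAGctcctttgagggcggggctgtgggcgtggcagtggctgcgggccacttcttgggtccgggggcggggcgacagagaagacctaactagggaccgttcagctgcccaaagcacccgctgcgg
Cxcl12, chr6:117168285-117168584, plus strand: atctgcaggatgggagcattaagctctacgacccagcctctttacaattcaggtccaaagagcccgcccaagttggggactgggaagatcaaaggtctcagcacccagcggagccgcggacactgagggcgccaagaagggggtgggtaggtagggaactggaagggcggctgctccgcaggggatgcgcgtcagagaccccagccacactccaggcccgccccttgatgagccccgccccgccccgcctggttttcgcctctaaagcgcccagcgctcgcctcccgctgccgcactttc

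Chemokines, the secreted proteins that direct leukocyte and stem cell movement, lay slightly higher with ERM. Of 29 past the floor, 21 lay above 0 and 8 below, with a median log2 ratio of 0.14; 2 were at least 1.5-fold higher and none lower. Of all genes 50.9% lay above 0, 2.01% were past 1.5-fold higher and 2.39% lower. Of 10 chemokine genes with at least 2 detected probe sets, 2 had every probe set above 0 and 1 had every one below. Over all such genes these shares were 20.7% and 19.5%. Cxcl12, which keeps stem cells in their niche through the receptor Cxcr4, read 1934 in TM4 with ERM and 1136 without on its brightest probe set. A second Cxcl12 probe set read 452 with ERM and 293 without, and the third, 1439084_at, read 1044 with ERM and 1053 without. So 2 of the 3 Cxcl12 probe sets were about 1.5 to 1.7-fold higher and 1 did not differ. Cxcl11, an interferon-induced ligand of Cxcr3, read 386 with ERM and 112 without, a 3.44-fold ratio, and its other probe set was below the floor on both arrays. Cxcl10, a related Cxcr3 ligand, read 1704 with ERM and 1208 without. The monocyte attractant Ccl7 read 712 with ERM and 517 without, and its neighbour in function Ccl2 read 1194 with ERM and 935 without. Cxcl5, which attracts neutrophils, read 239 with ERM and 185 without, and Ccl9 read 457 with ERM and 431 without. The receptor gene Cxcr4 was below the floor on both TM4 arrays, at 90.5 with ERM and 89.3 without.

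Feedback genes of FGF and ERK signalling, the pathway that acts on the PEA3 group, were divided. Of 21 past the floor, 10 lay above 0 and 11 below, where 50.9% of all genes lay above 0, and the median log2 ratio was -0.03. At 1.5-fold, 2 were higher and none lower, against 2.01% and 2.39% of all genes. Ier3, an early response gene that modulates ERK activity and survival, read 2322 with ERM and 1220 without, a 1.90-fold ratio. Spry2, an inhibitor of receptor tyrosine kinase signalling, read 2382 with ERM and 1583 without, and 869.7 with ERM and 641 without on its second probe set. Spry4, of the same family, had log2 ratios of 0.56, 1.31 and 0.31 on its detected probe sets. All detected probe sets of both Sprouty genes were therefore brighter with ERM. Dusp6, the phosphatase that inactivates ERK, read 1530.5 with ERM and 1125 without, and Il17rd, a membrane antagonist of FGF signalling, read 256 with ERM and 189.9 without, and 237 with ERM and 126 without. Spry1, Spry3, Spred1, Spred2, Spred3, Dusp4 and Dusp5, which hold the same kinds of role, had log2 ratios between -0.22 and -0.06 on their brightest probe sets. Spred1 read above 0 on 5 of its 7 detected probe sets, Spred2 ran from -0.57 to 0.26, and Dusp7, another ERK phosphatase, ran from -0.07 to 0.18. The feedback inhibitors thus did not move as 1 group.

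Immediate early genes had the highest median of the 38 gene lists, at 0.22, without any member past 1.5-fold. Of 20 members, all past the floor, 16 lay above 0. Over all genes 50.9% lay above 0, 2.01% were past 1.5-fold higher and 2.39% lower. Fos, a subunit of the AP-1 factor, read 359.6 with ERM and 249.6 without. Klf4, a zinc finger factor of growth arrest, read 348 with ERM and 261 without, and Zfp36, which destabilises cytokine mRNAs, read 261 with ERM and 204 without. Egr1 read 5713 with ERM and 5661 without, and Egr2, at 176 with ERM and 215 without, was lower. Of the 9 members with at least 2 detected probe sets, 2 had every probe set above 0 and 1 had every one below. Over all such genes these shares were 20.7% and 19.5%.

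Genes reported as targets of ETV5 or its PEA3 relatives did not lie higher as a group. Of 23 with a one-gene probe set, 19 were past the floor, 8 lay above 0 and 11 below, and the median log2 ratio was -0.09. Over all genes 50.9% lay above 0. Cxcl12 was the only member past 1.5-fold, where 2.01% of all genes were past it higher and 2.39% lower. Bcl6b, a transcriptional repressor that ETV5 is known to induce in spermatogonial stem cells, read 3405 with ERM and 3299 without. Lhx1, another stem cell target, read 683 with ERM and 699 without, and 142 with ERM and 92.7 without on a dimmer probe set. Ret, the receptor for GDNF in those cells, read 199 with ERM and 255 without. Mmp9, a matrix metalloproteinase gene used to study PEA3 factors, read 133 with ERM and 181 without. Mmp12 was below the floor on both arrays, at 71.0 with ERM and 34.99 without. Most of these relations are known from germ cells or tumour cells, and not from TM4.

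The ETS family as a whole also differed little. Of 23 family members past the floor, Etv5 among them, 16 lay above 0 with a median of 0.10. At 1.5-fold, 1 of the 23 was higher and 1 lower. Over all genes 50.9% lay above 0, 2.01% were past 1.5-fold higher and 2.39% lower. Etv4, also of the PEA3 group, read 635 with ERM and 542 without. Elk1, which joins ERK signalling to immediate early genes, read 993 with ERM and 658 without on its brightest probe set and had log2 ratios of 0.05 and 0.19 on the others. Erg, an endothelial and blood factor, read 23.0 with ERM and 384 without, at least 3.84-fold lower, whereas its other probe set read 128 with ERM and 101 without. Its direction therefore depends on the probe set.

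**Figure D3:**
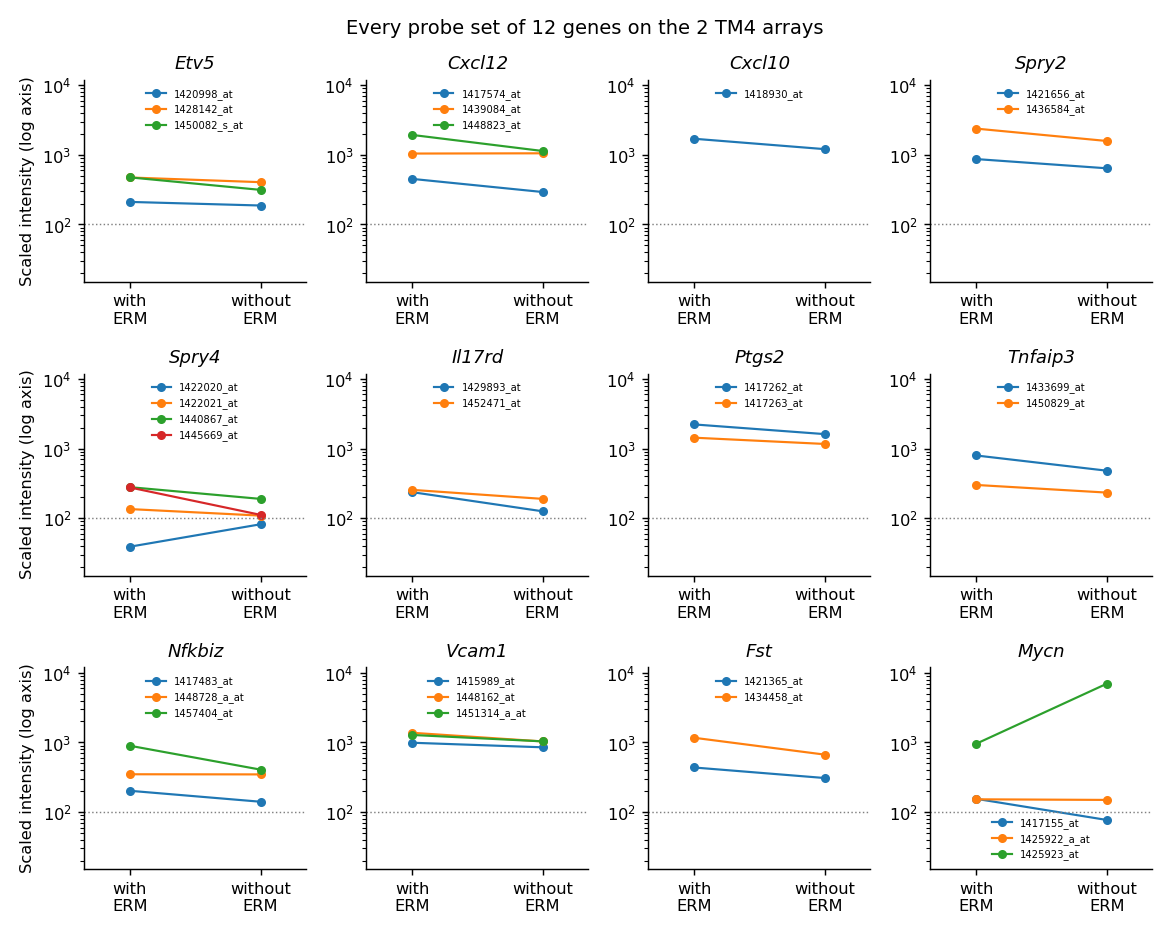
Scaled intensity on a log axis of every probe set of 12 genes, with TM4 with ERM at the left and TM4 without ERM at the right of each panel; lines join the values of 1 probe set, named in the panel, and the dotted line marks the floor of 100. Spry2, Il17rd, Ptgs2, Tnfaip3, Vcam1 and Fst are brighter with ERM on all their probe sets, 1 Cxcl12 probe set is level at 1044 with ERM and 1053 without, and the Mycn probe sets disagree.

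Most other gene groups were level between the arrays. Of 38 lists, 32 had a median within 0.1 of 0, where the median over all genes was 0.00. DNA replication genes (31 past the floor, median -0.03), mitosis genes (27, 0.01), heat shock genes (22, -0.00), unfolded protein response genes (25, -0.03), hypoxia and glycolysis genes (26, 0.04) and cholesterol genes (25, -0.04) had no member past 1.5-fold. Over all genes 2.01% were past 1.5-fold higher and 2.39% lower, so lists of this size would hold few such genes. Single members of these groups still varied within that limit. The lactate exporter gene Slc16a3 read 157 with ERM and 117 without, and Pdk1, a kinase that diverts pyruvate from mitochondria, read 1414 with ERM and 1005 without. Lig1, a DNA ligase of replication, read 1164 with ERM and 1595 without. Matrix genes leaned lower, with 19 of 26 below 0 and a median of -0.06, and housekeeping genes did so too, with 10 of 13 below 0 and a median of -0.07. Over all genes 50.9% lay above 0. The lean of the bright housekeeping genes, such as Rplp0 at 15747 with ERM and 16561 without, is of the same order as that of the matrix genes.

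Marker genes of other testis cells differed in level within the line. Of 16 smooth muscle and peritubular markers, 14 were at the floor or above on each array. Counting either array, 15 of the 16 were past the floor, and so were 16378 of all 18193 genes. These counts therefore do not set the markers apart. The summed level of the smooth muscle and peritubular markers was 38152 with ERM and 36889 without, against 17989 in wild-type Sertoli cells. Their median log2 ratio was -0.00. Leydig and steroid markers numbered 8 of 9 with ERM and 7 without. Of 18 macrophage markers with a one-gene probe set, 11 reached the floor with ERM and 12 without, with a median of 0.05 over the 12 measured. Spermatocyte and spermatid markers numbered 17 at the floor or above with ERM and 18 without, against 27 in wild-type Sertoli cells, and spermatogonial markers 22 with ERM and 20 without. Endothelial markers had the lowest median of all lists, at -0.30. Of their 14 members past the floor 10 lay below 0, where 50.9% of all genes lay above it. Sox18 read 168 with ERM and 273 without, Tek read 211 with ERM and 299 without, and Erg was as given above. Endothelial members read 23.0 to 726 with ERM and 26.6 to 803 without, so they were near the floor for the most part. The summed level of the endothelial markers was 2900 with ERM and 3667 without, against 3178 in wild-type Sertoli cells. The spread of dim genes given above applies to the dim members whose ratio is not a bound.

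**Figure D4:**
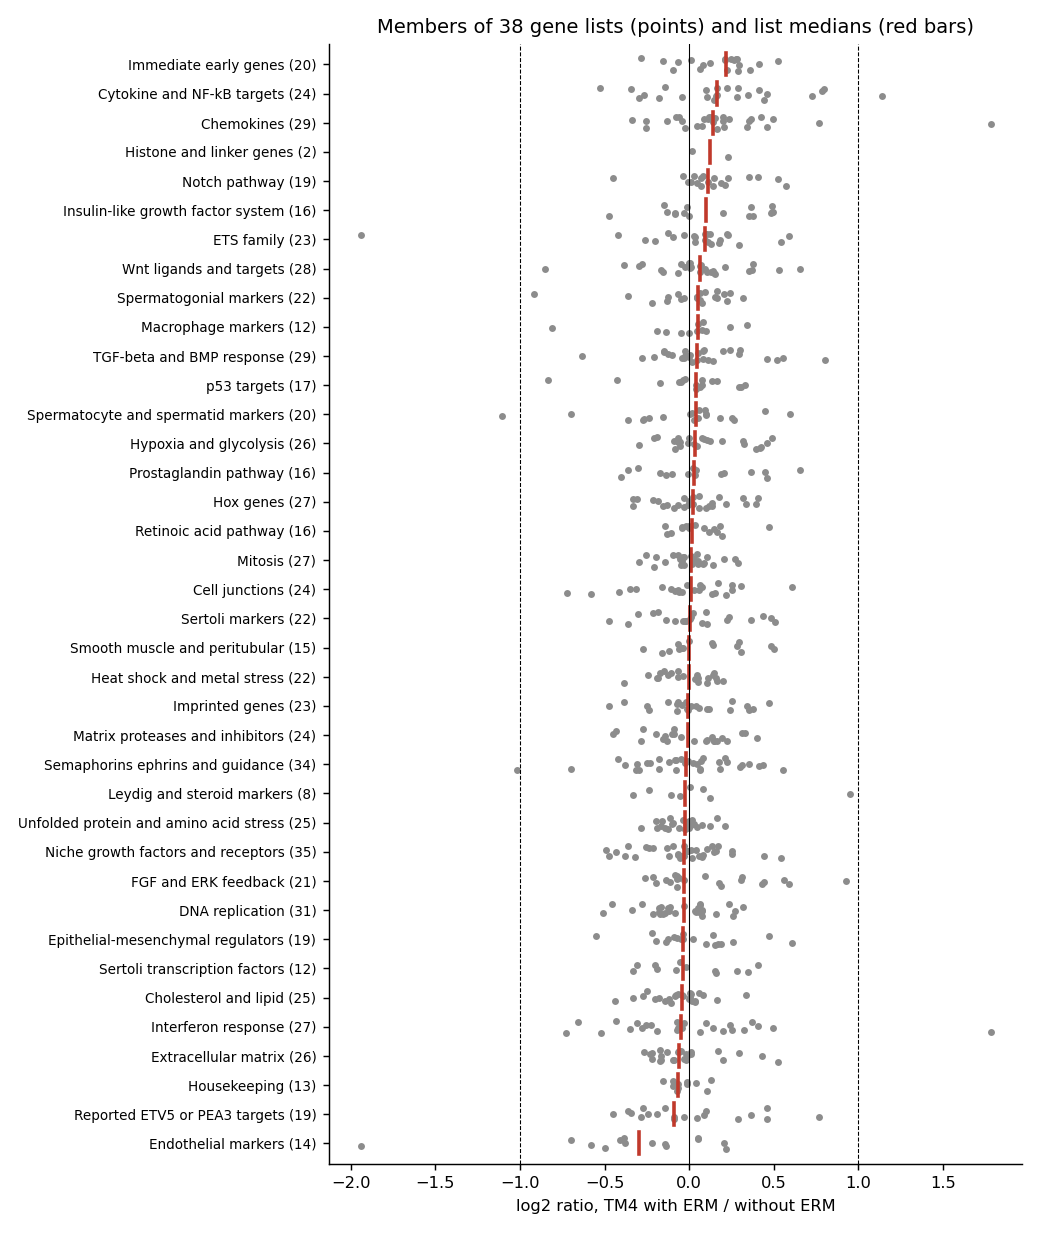
Members of 38 gene lists (grey points, number past the floor in brackets) by log2 ratio of TM4 with ERM over TM4 without, with the list median as a red bar and 2-fold marked by dashed lines. Medians run from -0.30 for endothelial markers to 0.22 for immediate early genes, and 32 lie within 0.1 of 0.

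Introduction of ERM into the line and its loss in primary Sertoli cells could be set side by side, because the pairs of arrays share no sample. The 4-week Sertoli knockout and wild-type arrays differed more than the TM4 pair, with r = 0.969 across probe sets. On the same probe sets 14781 genes were past the floor in both pairs. Across these genes the log2 ratios of the 2 pairs correlated with r = -0.0911, a weak relation over genes that share arrays. Genes at least 1.5-fold higher in TM4 with ERM numbered 243, and 41 of them (16.9%) were at least 1.5-fold lower in the knockout, where 8.88% of all genes were. Only 7 of the 243 were at least 1.5-fold higher in the knockout (2.88%, against 4.28% of all). Genes at least 1.5-fold lower in TM4 with ERM numbered 295, of which 19 (6.44%) were higher in the knockout and 33 (11.2%) lower. Genes past 2-fold in TM4 showed less: of 29 higher genes 3 were lower in the knockout and 1 higher, and of 52 lower genes 4 were higher and 4 lower. As shown above, dim genes were past 1.5-fold in TM4 more often than bright ones, and the part of this in the shares was not tested.

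The genes behind the first of these shares can be named, though they were picked out after their values were seen. Of the 243 genes, 17 (7.0%) were at least 2-fold lower in the 4-week knockout, against 2.82% of all genes. They included the chemokine genes Cxcl12 and Cxcl11, the feedback genes Spry2, Dusp1 and Tnfaip3, and the chemokine receptor gene Ccr1. Cxcl12 had the largest knockout difference, with 61.3 in 4-week knockout cells and 506 in 10-week knockout cells, against 1256 in 4-week wild-type cells. Its second probe set followed, with 112 in 4-week knockout cells and 1116 in wild-type cells, but 1439084_at, level in TM4, read 586 in 4-week knockout cells and 452 in wild-type cells. The same Cxcl12 probe set was thus the exception in both pairs. Spry2 read 457 in 4-week knockout cells and 1069 in wild-type cells, Tnfaip3 556 in knockout cells and 1135 in wild-type cells, and Cxcl11 211 in knockout cells and 699 in wild-type cells. Dusp1, a phosphatase of MAP kinases, read 959.8 in TM4 with ERM and 583 without, and 305 in 4-week knockout cells and 897 in wild-type cells. Thbd, which encodes the thrombin-binding protein thrombomodulin, read 239.8 with ERM and 126 without, and 113 in knockout cells and 548 in wild-type cells. Further members were Hsd3b7, Hsd11b1, Sp4, Npas3, Amer2, Agt, Ceacam2, Terb2, Cd274 and the provisional gene D630023F18Rik. Set against the 4-week wild type, the pattern was weaker in the 10-week knockout. The series has no 10-week wild-type array, so age and genotype cannot be told apart in that comparison. There 3 of the 17 were at or below 0.5 of the 4-week wild-type value and 7 were at or above it, with Dusp1 at 1296 and Tnfaip3 at 1960.3. Only 4 of the 17 had at least 2 detected probe sets.

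Opposite differences were fewer. Of the 295 genes lower in TM4 with ERM, 4 (1.36%) were at least 2-fold higher in the 4-week knockout, against 0.636% of all genes, and 6 (2.03%) were at least 2-fold lower there. The 4 were Sox1, Wnt4, Lrfn4 and Gm10575. Wnt4, a Wnt ligand of gonad development, read 231 in TM4 with ERM and 417 without, and 1401 in 4-week knockout cells and 325 in wild-type cells. Its other probe set, at 325 with ERM and 305 without, did not share the TM4 difference. The chemokines Ccl7, Cxcl5, Ccl2 and Ccl9, all dimmer in 4-week knockout than in wild-type cells, had smaller ratios in TM4. Ccl7 read 111 in knockout cells and 2739 in wild-type cells, Cxcl5 893 in knockout cells and 8235 in wild-type cells, and Ptgs2 115 in knockout cells and 808 in wild-type cells, while none of the 3 reached 1.5-fold in TM4.

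**Figure D5:**
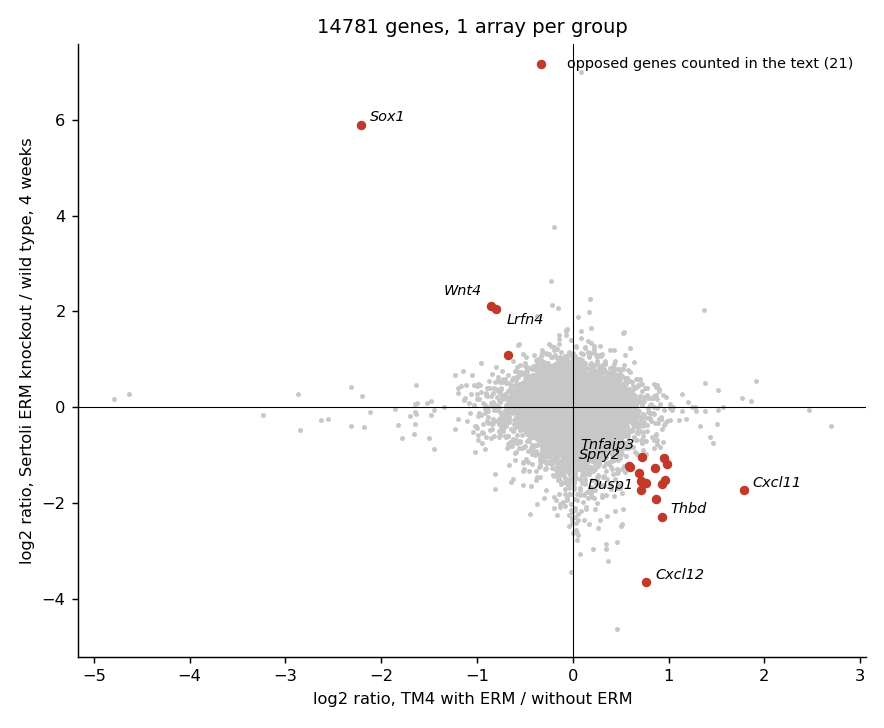
Each point is 1 of 14781 genes, with the log2 ratio of TM4 with ERM over TM4 without on the horizontal axis and that of 4-week Sertoli ERM knockout over wild type on the vertical axis, 1 array per group. Red marks the 17 genes at least 1.5-fold higher in TM4 with ERM and at least 2-fold lower in the knockout, at the lower right, and the 4 genes with the opposite pattern, at the upper left.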

How the data were processed

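RNA of TM4 cells with and without ERM was measured on 1 single-colour Affymetrix array each, in a table of 45101 probe sets that also holds 3 Sertoli arrays. The values deposited by the authors are linear probe set intensity values that go down to exactly 1. What software and scaling made them is not stated in the labels or the table. All 5 value columns of the table were matched to samples by name, and 0 were left unused.

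From these values the trimmed mean of every array (controls left out, percentiles 2 to 98 kept) was brought to 500. Values under 0.2 of that mean, 100, were set to it before log2 ratios were taken, and no ratio was given with both arrays below. Probe sets annotated to 1 gene were kept (34945, for 18193 genes), and those with several genes (932), no gene (9160) or controls (64) were left out of gene counts. Identifiers of 34741 kept probe sets matched the RefSeq gene table of GRCm38.p6, used for names only. A gene was represented by its probe set with the highest mean over the TM4 arrays, and called at 2-fold. Arrays carry no read depth, and their number limits the precision.

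The naming rule gave Etv5, then up to 15 genes in each direction with at least 2 probe sets past 1.5-fold and all in 1 direction, then the 12 highest and 12 lowest others with the brighter array at 500 or above, the members of every list with the largest ratios (at most 4), and always Ret, Cxcr4, Lhx1, Bcl6b, Mmp12, Ccl9, Ccl7, Cxcl5 and Cxcl12. Genes with only clone or provisional names, 8 of the higher and 7 of the lower genes past 2-fold, were counted but not named by the rule. Names outside it, such as the genes at thresholds, further list members and the genes opposed between TM4 and Sertoli cells, were chosen after their values were seen. The comparison, its members and the 38 gene lists were chosen with earlier results of these data known. The settings also tried, 7 in number, changed the scaling, the floor, the choice of probe set and cross-hybridising probe sets, and 2 more were added after seeing the data. The values of 1 gene that the rule named are not reported here. Steps were tested on simulated data. Known changes were placed there only in bright genes, so recovery of differences in dim genes was not tested. Scripts ran in Python 3.11.15 with pandas 2.3.3, numpy 2.4.6 and matplotlib 3.10.9.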

Additional observations from a re-analysis of the deposited data

Results flagged for a closer look

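Probe sets without a gene name in the annotation lie outside every gene count given above, and they held large ratios too. Of 6318 past the floor, 44 were at least 2-fold higher with ERM and 49 at least 2-fold lower, together 1.47%, against 0.746% of 29214 one-gene probe sets. Among the highest were 1442702_at, at 847 with ERM and 3.23 without, and 1443455_at, at 509 with ERM and 2.73 without. Among the lowest were 1458055_at, at 2.69 with ERM and 926 without, and 1436032_at, at 92.3 with ERM and 685 without. On each of these 4 the dimmer array was below the floor, so the ratios are bounds. No group held enough arrays for a check on outlying samples.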

How the results depend on the processing

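The counts at 2-fold kept within 1.5 times of 48 higher and 76 lower genes with the values as deposited (51 and 73), quantile normalization (48 and 79), ratios centred on the median (48 and 80), the mean over probe sets (35 and 63), without probe sets prone to cross-hybridisation (47 and 78) and, added after seeing the data, with the probe set brightest over all 5 arrays (49 and 72). Other settings moved them further. A floor at 0.1 of the trimmed mean gave 136 higher and 198 lower genes, and one at 0.4 gave 27 and 29. Keeping only genes with the brighter array at the trimmed mean or above, also added later, gave 20 and 22. The 5 and 5 genes with at least 2 probe sets past 1.5-fold became 10 and 3 with the values as deposited, 19 and 36 with the lower floor, and 0 and 0 with the higher floor. Of the 124 genes past 2-fold, 56 remained at the higher floor and all 124 were among the 334 at the lower one, while 95 remained with the mean over probe sets. No named gene past 2-fold changed sign where it had a value under the 7 settings that were not added later, no list median moved by more than the probe-set spread, and 62 of 180 named genes moved by more than that under the mean over probe sets. Signal over background limits the dim genes most. No paired analysis was possible because each group had 1 array. Leaving out an array was not possible for the same reason.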

Other observations

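Several gene groups not described above had a few members with differences of about 1.5-fold. In the TGF-beta and BMP group, 29 genes past the floor had a median log2 ratio of 0.05, with 1 past 1.5-fold higher and 1 lower. Over all genes 2.01% were past 1.5-fold higher and 2.39% lower. Fst, or follistatin, which binds activin, read 1168 with ERM and 669 without, and 437 with ERM and 308 without on its second probe set, so both probe sets were higher. Id1, a target of BMP signalling, read 1217 with ERM and 849 without. Smad7, the inhibitory Smad, read 836 with ERM and 569.8 without on 1 probe set and 285 with ERM and 264 without on another. Bmp8b, a BMP of the germ line, read 469 with ERM and 726 without.

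Among 28 Wnt ligands and targets the median was 0.06. Rspo3, a secreted enhancer of Wnt signalling, read 1008 with ERM and 641.5 without, and Wnt2 read 503.5 with ERM and 348.5 without. Of 19 Notch pathway genes 16 lay above 0, with a median of 0.11 and none past 1.5-fold. Over all genes 50.9% lay above 0, 2.01% were past 1.5-fold higher and 2.39% lower. Dtx1, a modulator of Notch, read 639 with ERM and 429 without on 1 probe set and 434 with ERM and 492 without on another. Hey1, a Notch target, read 347 with ERM and 473 without. In the cell junction group Cdh2, or N-cadherin, which joins Sertoli cells to each other and to germ cells, read 1558 with ERM and 1023 without, and 888 with ERM and 688 without on a second probe set. Cxadr, an adhesion protein of tight junctions, read 317 with ERM and 523.5 without on its brightest probe set, while log2 ratios of 0.24, -0.25 and -0.20 stood on its other detected probe sets. Interferon response genes had a median of -0.05, with Tap1, the peptide transporter of antigen presentation, at 109 with ERM and 180.1 without, and Irf9, a subunit of the interferon-activated factor, at 179 with ERM and 281 without, whereas Cxcl11 of the same list was 3.44-fold higher. Of 17 p53 targets 10 lay above 0, against 50.9% of all genes, with a median of 0.04. Pmaip1, or Noxa, a promoter of cell death, read 129 with ERM and 231 without, and the cell cycle inhibitor gene Cdkn1a read 475 with ERM and 639.6 without on 1 probe set and 126 with ERM and 97.6 without on another. Bbc3 and Perp, which also promote cell death, were higher, at 266 with ERM and 211 without and at 435 with ERM and 352 without. Epha4, an ephrin receptor gene, read 305 with ERM and 496 without.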
